A study of Mus musculus with 6 samples.

Results

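The transforming growth factor beta (TGF-beta) superfamily was followed through RNA of isolated mouse pancreatic islets, from its ligands and receptors to the Smad proteins, secreted antagonists and Id target genes. Members were chosen by symbol alone, taking the Tgfb, Tgfbr, Bmp, Bmpr, Acvr, Smad, Gdf and Inhb families with Inha, Fst, Fstl1, Fstl3, Nog, Grem1 and Id1 to Id4. The rule found 58 genes among the 24421 genes of the count table. The islets carried either a β cell-specific Dhps knockout label (C57.DhpsloxP.MIP1-CreERT, 3 libraries) or the label control (3 libraries), and both groups were of strain C57BL/6J. The deleted gene makes deoxyhypusine synthase, an enzyme that modifies the translation factor eIF5A. In that label, loxP sites in Dhps are paired with MIP1-CreERT, a Cre recombinase that tamoxifen activates and an insulin promoter drives. The MIP1-CreERT line is known to carry a human growth hormone minigene, and the labels do not say whether the controls had Cre. Age, sex, tamoxifen dose and the meaning of the sample prefix HF are not in the labels either.

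Ligands of this superfamily bind pairs of type I and type II receptor kinases. TGF-beta and activin receptors mainly phosphorylate Smad2 and Smad3, and BMP receptors mainly phosphorylate Smad1, Smad5 and Smad9. All of these join Smad4 and move into the nucleus, where BMP signals typically induce the Id genes, and the inhibitory Smads feed back on the receptors. In islets, BMPR1A signalling is known to support insulin secretion, and activin and TGF-beta signals act on β cell maturation and replication, while stromal and endothelial cells use the same pathway for matrix production and vessel stability.

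Each library held 21027737 to 23249895 counts assigned to genes. Dhps itself, which checks the labels, had 11.7, 12.7 and 11.4 CPM (counts scaled to TMM-adjusted library size) in the knockout-labelled libraries, against 12.03, 13.4 and 12.3 CPM in the controls. The groups overlapped, with a log2 fold change of -0.07 ± 0.12 (SE) and an edgeR adjusted p of 0.742, so directions below refer to the label; the count covers the whole gene, overlaps exons of Wdr83 and includes cells without Cre. The 9 β cell markers together took 392800 to 447700 CPM in the knockout-labelled libraries and 366100 to 495000 CPM in the controls. Of these 9, Nkx6-1, Slc2a2 and Ucn3 fell, with log2 fold changes of -0.65, -1.15 and -0.86 (adjusted p = 0.0215, 0.0284 and 0.0197 in edgeR), and the 9 had a median of -0.54, while Ins1, Ins2 and Iapp were not called. Summed levels of several other cell types were higher in each knockout-labelled library than in each control; the α cell, PP cell and lymphocyte sums overlapped. The 12 endothelial markers summed to 535 to 630 CPM in the knockout-labelled libraries and 378 to 499 CPM in the controls. The 13 stellate cell and fibroblast markers summed to 379 to 474 CPM in the knockout-labelled libraries, against 102 to 344 CPM in the controls. The 11 macrophage markers summed to 282 to 359 CPM in the knockout-labelled libraries and 161 to 171 CPM in the controls. The 7 duct markers summed to 371 to 570 CPM in the knockout-labelled libraries and 262 to 321 CPM in the controls, and the 12 acinar markers to 26050 to 29420 CPM in the knockout-labelled libraries and 958 to 10910 CPM in the controls. In bulk RNA, more cells of a type and more RNA per cell cannot be told apart. Nothing in the labels says that replicates are separate animals, and the p-values therefore cover the spread among these libraries, which may be technical.

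**Figure D1:**
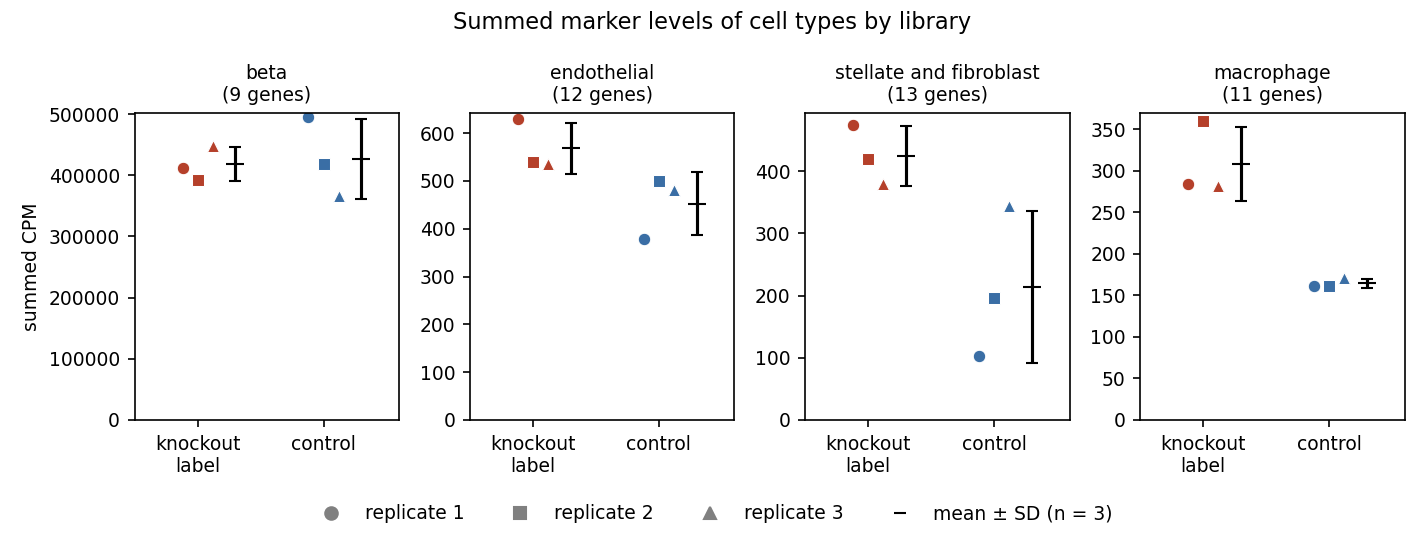
Summed CPM of marker lists for β cells, endothelium, stellate cells and fibroblasts, and macrophages, by library (points; bars give mean ± SD, n = 3). The 3 knockout-labelled libraries lie above all 3 controls for the endothelial, stromal and macrophage lists, while the β cell sum overlaps between the labels, although 3 of its 9 genes fell.

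Of the 58 genes, 41 had enough counts to be tested. By the quasi-likelihood test of edgeR, adjusted by Benjamini-Hochberg over all 13736 genes tested, 5 were higher and 1 was lower in the knockout-labelled islets at an adjusted p under 0.05. Those that rose were the TGF-beta type II receptor Tgfbr2, the ligand Gdf10, the endothelial type I receptor Acvrl1, the inhibitory Smad7 and the target Id3. The BMP type I receptor Bmpr1b fell. Among the tested members, 12.2% were called higher and 2.44% lower, against 4.14% and 2.63% of all genes tested, or 6.76% in either direction. The share called lower was thus near the background, and no test was made of whether the share called higher departed from it. The 3 libraries of one label did not overlap the other 3 for 18 of the 41 members, or 43.9%, against 32.2% of all genes tested. The count of 5 was 1 without knockout-labelled replicate 1, 2 without knockout-labelled replicate 2 or 3 or without control 3, and 3 without control 2. Without control 1 it was 4, made up of Tgfbr2, Gdf10, Tgfb3 and Inhbb, the last 2 not called with all libraries. The median log2 fold change of the 41 was 0.49, beside 0.01 over all genes tested. Bmp4 and Bmp5 passed the count filter through the 3 knockout-labelled libraries and only 1 control, so counts over the 41 members are not free of that choice.

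**Figure D2:**
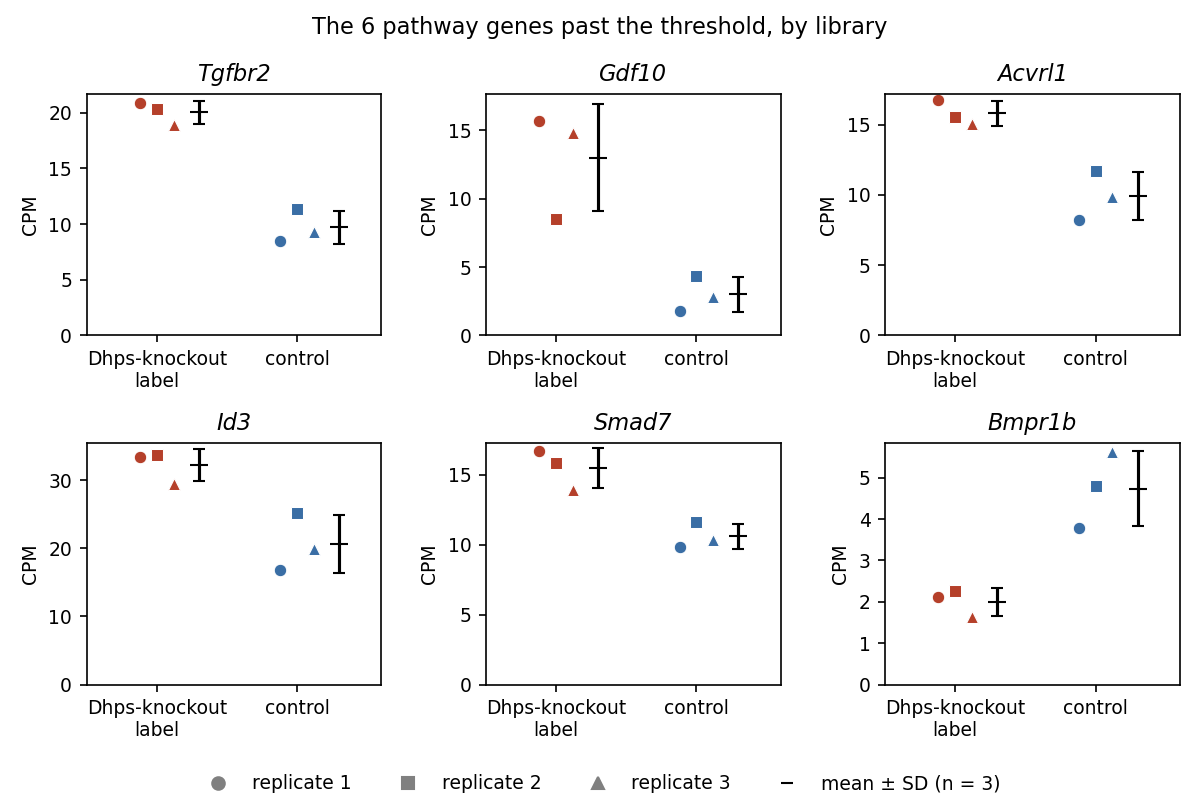
CPM of the 6 members past the threshold in each library, with knockout-labelled libraries on the left of each panel and controls on the right; bars give mean ± SD (n = 3). The groups do not overlap in any of the 6 panels, and Bmpr1b is the one gene with lower values in the knockout-labelled islets.

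Tgfbr2, the receptor that binds TGF-beta itself and recruits the type I receptor Tgfbr1, had the smallest p of the members. It lies on chromosome 9 from 116087695 to 116175363 (mm10, minus strand). The knockout-labelled libraries had 20.9, 20.4 and 18.9 CPM, against 8.51, 11.4 and 9.29 CPM in the controls. All 3 knockout-labelled values lay well above the highest control, with a log2 fold change of 1.04 ± 0.14 (SE, adjusted p = 0.00841). Tgfbr2 stayed past the threshold whichever of the 6 libraries was left out, with log2 fold changes of 0.95 to 1.16 and adjusted p of 0.014 to 0.0458.

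Gdf10, also called BMP3b, is a secreted ligand of the BMP3 subgroup. It had the largest fold change of the tested members. It spans 33923587 to 33935282 on chromosome 14 (plus strand), next to Gdf2. Its level was 15.7, 8.50 and 14.8 CPM in the knockout-labelled libraries and 1.80, 4.37 and 2.81 CPM in the controls. The lowest knockout-labelled value, in replicate 2, was still above the highest control, which was also replicate 2. The log2 fold change was 2.11 ± 0.32 (adjusted p = 0.0129). Without knockout-labelled replicate 1 it was 1.95, with an adjusted p of 0.0517, and it passed without each of the other 5 libraries.

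Acvrl1 encodes ALK1, the type I receptor of endothelial cells for BMP9 and BMP10. It lies on chromosome 15 from 101128522 to 101145336. It had 16.8, 15.6 and 15.1 CPM in the knockout-labelled libraries, against 8.23, 11.7 and 9.88 CPM in the controls. The log2 fold change was 0.67 ± 0.15 (adjusted p = 0.0331). The groups were apart, but the call rested on all 6 libraries, since leaving out any one gave an adjusted p of 0.0518 to 0.104. Its neighbour Acvr1b, the activin type I receptor ALK4, starts 28788 bases further on with no listed gene between them and was not called, at 1.23, 1.13 and 0.761 CPM in the knockout-labelled libraries and 0.972, 1.29 and 1.19 CPM in the controls.

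Smad7, on chromosome 18 from 75367365 to 75395934, binds activated type I receptors and limits their signal. Its CPM values were 16.7, 15.8 and 13.9 in the knockout-labelled libraries and 9.86, 11.6 and 10.4 in the controls, a log2 fold change of 0.55 ± 0.13 (adjusted p = 0.0385). The groups did not overlap, yet the adjusted p was 0.0526 to 0.123 with any library left out.

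Id3, an inhibitor of basic helix-loop-helix transcription factors and a classical BMP target, lies on chromosome 4 from 136143822 to 136145392. It had 33.4, 33.7 and 29.5 CPM in the knockout-labelled libraries, against 16.8, 25.1 and 19.9 CPM in the controls. The log2 fold change was 0.64 ± 0.14 (adjusted p = 0.0343). Its call held without control 2 (adjusted p = 0.0413) and was lost without each of the other 5 libraries, at 0.0547 to 0.104.

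Bmpr1b, the BMP type I receptor ALK6, was the single member that fell. The gene covers 141837136 to 142169228 on chromosome 3 (minus strand). Its CPM values were 2.11, 2.25 and 1.62 in the knockout-labelled libraries and 3.79, 4.79 and 5.61 in the controls. Every knockout-labelled value was below the lowest control, and the log2 fold change was -1.24 ± 0.26 (adjusted p = 0.0292). Between 32 and 48 counts in each knockout-labelled library and 82 to 142 in each control stand behind it. The call was kept without knockout-labelled replicate 2 (adjusted p = 0.0389) or control 1 (0.0275) and lost without each of the other 4 libraries, at 0.0714 to 0.0985.

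**Figure D3:**
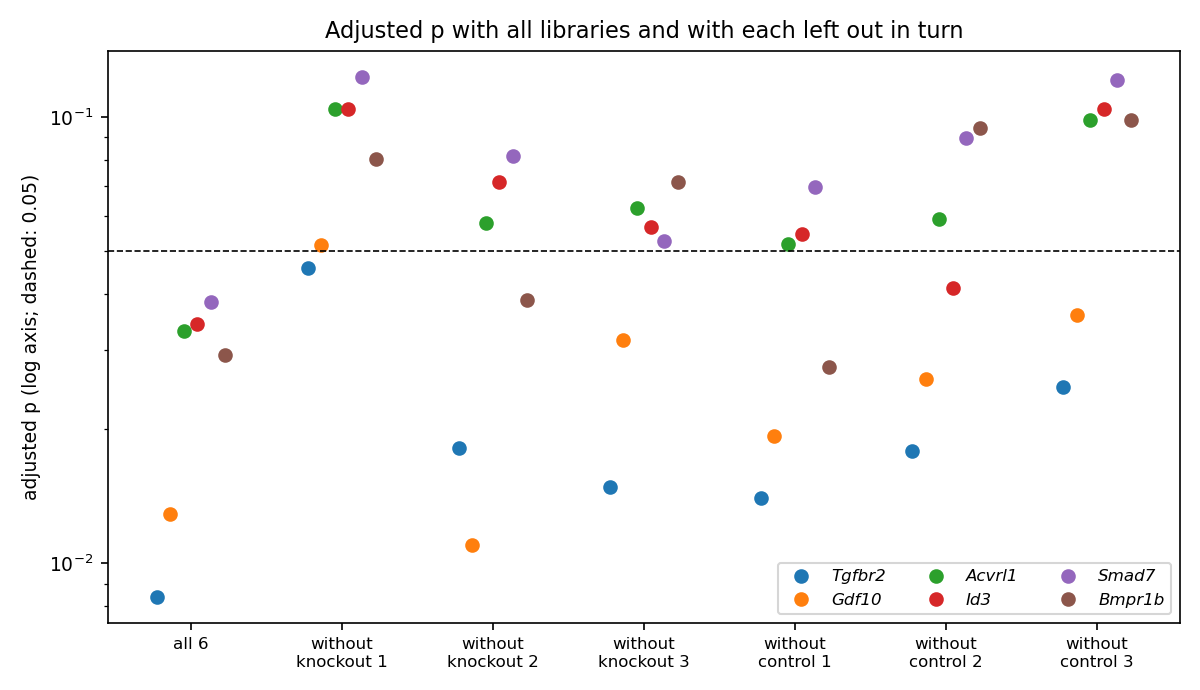
Adjusted p (log axis) from edgeR's quasi-likelihood test for the 6 members, with all 6 libraries and with each library left out in turn; the dashed line is 0.05. Tgfbr2 stays under the line in all 6 fits with a library left out and Gdf10 in 5, while Acvrl1 and Smad7 rise above it in all 6.

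These changes can be set against the markers of cells other than β cells. Of those tested, 4 of 12 endothelial, 4 of 13 stromal and 6 of 11 macrophage genes were called higher. So were 1 of 4 δ cell, 1 of 2 PP cell, 1 of 6 duct and 1 of 7 lymphocyte genes. The acinar, α cell and Schwann cell lists had 0 of 11, 0 of 6 and 0 of 7 called higher. In each list 0 genes were called lower, and 4.14% of all genes tested were called higher. No marker of these lists that is in the table was at 0 in all libraries. The following ratios were chosen after the values were seen and carry no test. Per 1000 counts of the endothelial markers, Tgfbr2 had 33.2, 37.8 and 35.3 counts in the knockout-labelled libraries, against 22.5, 22.8 and 19.3 in the controls. On the same scale Acvrl1 had 26.7, 28.9 and 28.2 counts, against 21.8, 23.5 and 20.5 in the controls. Both were thus also apart relative to the summed endothelial markers, as were Gdf10 and Id3. That sum mixes unlike markers, with log2 fold changes from -0.02 for Kdr and -0.01 for Flt1 to 0.74 for Pecam1 and 1.7 for Vwf. The ratios therefore depend on which markers weigh most in it. For Smad7 the same ratio overlapped, with 26.5, 29.3 and 26.0 counts in the knockout-labelled libraries and 26.1, 23.2 and 21.5 in the controls. Per 1000 counts of the stellate cell and fibroblast markers, all 5 members that rose overlapped between the labels. Tgfbr2, for example, had 44.1, 48.6 and 49.9 in the knockout-labelled libraries and 83.2, 58.0 and 27.0 in the controls. The stromal sum itself ran from 102 CPM in control 1 to 344 CPM in control 3, which spreads the control ratios. The overlap therefore cannot decide the part of stromal cells in these changes. Bmpr1b was lower in the knockout-labelled libraries per 1000 β cell marker counts, with no overlap. The β cell sum also mixes unlike markers, with log2 fold changes from -1.15 for Slc2a2 to 0.12 for Iapp. This ratio, too, depends on which of them weigh most. Bmpr1b was also lower on the endothelial and stromal scales. There this outcome was fixed in advance, since both marker sums were higher in each knockout-labelled library than in each control. The part of macrophages and acinar cells in these changes was not tested.

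Promoter sequences are shown for called members and for the other Id genes, because Smad proteins bind short DNA motifs near their targets and the Id genes are the pathway's own readout. RefSeq promoters (GRCm38.p6, 250 bases before to 50 after the gene start) within 1000 bases of the 5′ end of the deposited gene model were found for 39 of the 58 members. Acvrl1, Smad7, Id1 and Bmpr1b had no such entry. Capitals mark GGCGCC, a GC-rich motif bound by BMP Smads, and CAGAC or its reverse complement GTCTG, which holds the core Smad box; the palindrome GTCTAGAC was also searched. All were searched on both strands; GGCGCC and GTCTAGAC read the same on both, and no marked matches overlap. Sequences run 5′ to 3′ on the gene's strand.
Tgfbr2, chr9:116175314-116175613, minus strand: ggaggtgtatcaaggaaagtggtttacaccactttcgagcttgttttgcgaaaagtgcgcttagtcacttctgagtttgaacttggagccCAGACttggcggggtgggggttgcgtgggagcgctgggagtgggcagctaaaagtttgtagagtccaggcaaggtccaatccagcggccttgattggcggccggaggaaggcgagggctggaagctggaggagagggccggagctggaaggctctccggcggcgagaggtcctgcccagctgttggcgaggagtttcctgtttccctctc
Gdf10, chr14:33923337-33923636, plus strand: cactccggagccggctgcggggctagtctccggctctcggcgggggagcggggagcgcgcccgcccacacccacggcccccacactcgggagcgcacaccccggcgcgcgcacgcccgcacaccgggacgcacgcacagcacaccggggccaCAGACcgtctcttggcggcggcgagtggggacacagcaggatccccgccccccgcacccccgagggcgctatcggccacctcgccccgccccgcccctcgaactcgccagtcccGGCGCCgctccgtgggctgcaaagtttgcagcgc
Id3, chr4:136143572-136143871, plus strand: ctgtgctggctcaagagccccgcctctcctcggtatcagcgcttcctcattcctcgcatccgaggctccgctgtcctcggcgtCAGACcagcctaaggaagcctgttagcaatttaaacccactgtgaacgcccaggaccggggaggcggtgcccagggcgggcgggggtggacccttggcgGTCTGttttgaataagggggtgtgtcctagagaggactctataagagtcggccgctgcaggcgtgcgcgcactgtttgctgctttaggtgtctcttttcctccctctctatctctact
Id4, chr13:48260866-48261165, plus strand: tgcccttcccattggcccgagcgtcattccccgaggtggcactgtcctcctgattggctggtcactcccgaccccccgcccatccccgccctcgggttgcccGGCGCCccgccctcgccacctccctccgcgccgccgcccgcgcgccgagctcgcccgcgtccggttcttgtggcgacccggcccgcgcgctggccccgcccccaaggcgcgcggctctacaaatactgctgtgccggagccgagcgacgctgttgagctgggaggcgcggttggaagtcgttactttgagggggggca
Id2, chr12:25096043-25096342, minus strand: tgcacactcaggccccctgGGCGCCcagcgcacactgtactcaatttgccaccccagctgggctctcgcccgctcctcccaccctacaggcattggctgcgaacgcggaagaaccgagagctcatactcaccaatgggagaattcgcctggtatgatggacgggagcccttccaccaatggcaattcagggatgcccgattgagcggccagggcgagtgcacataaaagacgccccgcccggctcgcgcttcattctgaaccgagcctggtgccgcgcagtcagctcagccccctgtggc
CAGAC or GTCTG stood in the windows of Tgfbr2, Gdf10 and Id3, the 3 called members shown, and in 48.5% of 16747 promoters of listed genes. It was in 17 of the 39 members with a promoter and in 11 of the 27 tested ones. The called Acvrl1, Smad7 and Bmpr1b had no window to search. Id3 held it at 2 places, at positions -167 and -68 from the gene start. GGCGCC was in the Gdf10 window, past the start, and in those of Id2 and Id4 but not of Id3; 16.0% of all promoters held it, as did 11 of the 39 members. GTCTAGAC was in none of the windows shown, in 1 of the 39 members (Smad6) and in 0.191% of all promoters. The matches are descriptions of these windows and not binding sites.

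The TGF-beta ligands were not called, although all 3 had higher means in the knockout-labelled libraries. Tgfb1, the isoform of immune and stromal cells, had 7.08, 8.41 and 5.89 CPM in the knockout-labelled libraries, against 4.26, 4.79 and 5.22 CPM in the controls. The groups did not overlap, and the log2 fold change was 0.58 ± 0.19 (adjusted p = 0.0935). Tgfb3 had 6.77, 8.03 and 7.26 CPM against 6.80, 3.42 and 2.77 CPM in the controls, where control 1 reached the range of the other label. Without control 1 its log2 fold change was 1.25 and its adjusted p 0.0215, against 0.77 ± 0.30 and 0.141 with all libraries. Tgfb2 was 9.28, 4.46 and 4.92 CPM in the knockout-labelled libraries and 3.56, 5.29 and 2.96 CPM in the controls, so 1 high library set its mean (log2 fold change 0.66 ± 0.32, adjusted p = 0.223).

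BMP ligands were rare transcripts, and none of the 6 tested was called. Bmp6, which in liver endothelium controls iron balance, was the most abundant per length, at 1.63 RPKM (CPM per kilobase of exon) in the knockout-labelled libraries and 1.2 RPKM in the controls. Its CPM was 5.19, 2.96 and 3.65 in the knockout-labelled libraries, against 2.64, 2.96 and 3.08 in the controls, and the groups overlapped. Bmp3, a ligand that opposes osteogenic BMPs, had 3.08, 3.10 and 5.18 CPM against 3.05, 2.33 and 2.37 CPM in the controls (log2 fold change 0.55 ± 0.29, adjusted p = 0.257). Bmp2, a ligand of BMPR1A and BMPR1B, had 1.63, 2.77 and 2.74 CPM against 0.786, 1.999 and 1.34 CPM in the controls (0.78 ± 0.41, adjusted p = 0.251). Bmp4, Bmp5 and Bmp7 averaged under 0.5 RPKM under either label, and their 95% intervals of the log2 fold change all included 0. Bmp1, which shares the name but is a procollagen C-proteinase, was the most abundant secreted member, with 13.9 RPKM in the knockout-labelled libraries and 13.2 RPKM in the controls. Its log2 fold change was 0.08 with a 95% interval of -0.22 to 0.37.

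Apart from Gdf10, the tested GDF ligands were the stress-induced Gdf15 and the Nodal-like Gdf3. Gdf15 had 2.20, 0.939 and 1.68 CPM in the knockout-labelled libraries and 1.02, 0.708 and 0.514 CPM in the controls, with overlap (log2 fold change 1.11 ± 0.45, adjusted p = 0.152). Gdf3 had 3.52, 2.44 and 1.22 CPM against 1.39, 0.708 and 1.23 CPM in the controls (1.12 ± 0.45, adjusted p = 0.148). Knockout-labelled replicate 3 lay inside the control range for Gdf3.

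Among the activin and inhibin subunits, Inhbb, which forms activin B, came closest to the threshold. It had 11.9, 10.9 and 13.4 CPM in the knockout-labelled libraries, against 9.53, 7.91 and 4.82 CPM in the controls. The groups were apart, at a log2 fold change of 0.71 ± 0.22 and an adjusted p of 0.0827 in edgeR; DESeq2 gave 0.0347, and edgeR without control 1 gave 0.0447. Inha, the α subunit that turns activin chains into inhibins, was lower in every knockout-labelled library at 5.23, 5.54 and 5.18 CPM, against 7.45, 5.71 and 5.73 CPM in the controls, but by little (-0.24 ± 0.18, adjusted p = 0.437). Inhba, the activin A chain, overlapped, with 1.14, 0.751 and 1.93 CPM against 1.53, 0.916 and 0.672 CPM in the controls.

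**Figure D4:**
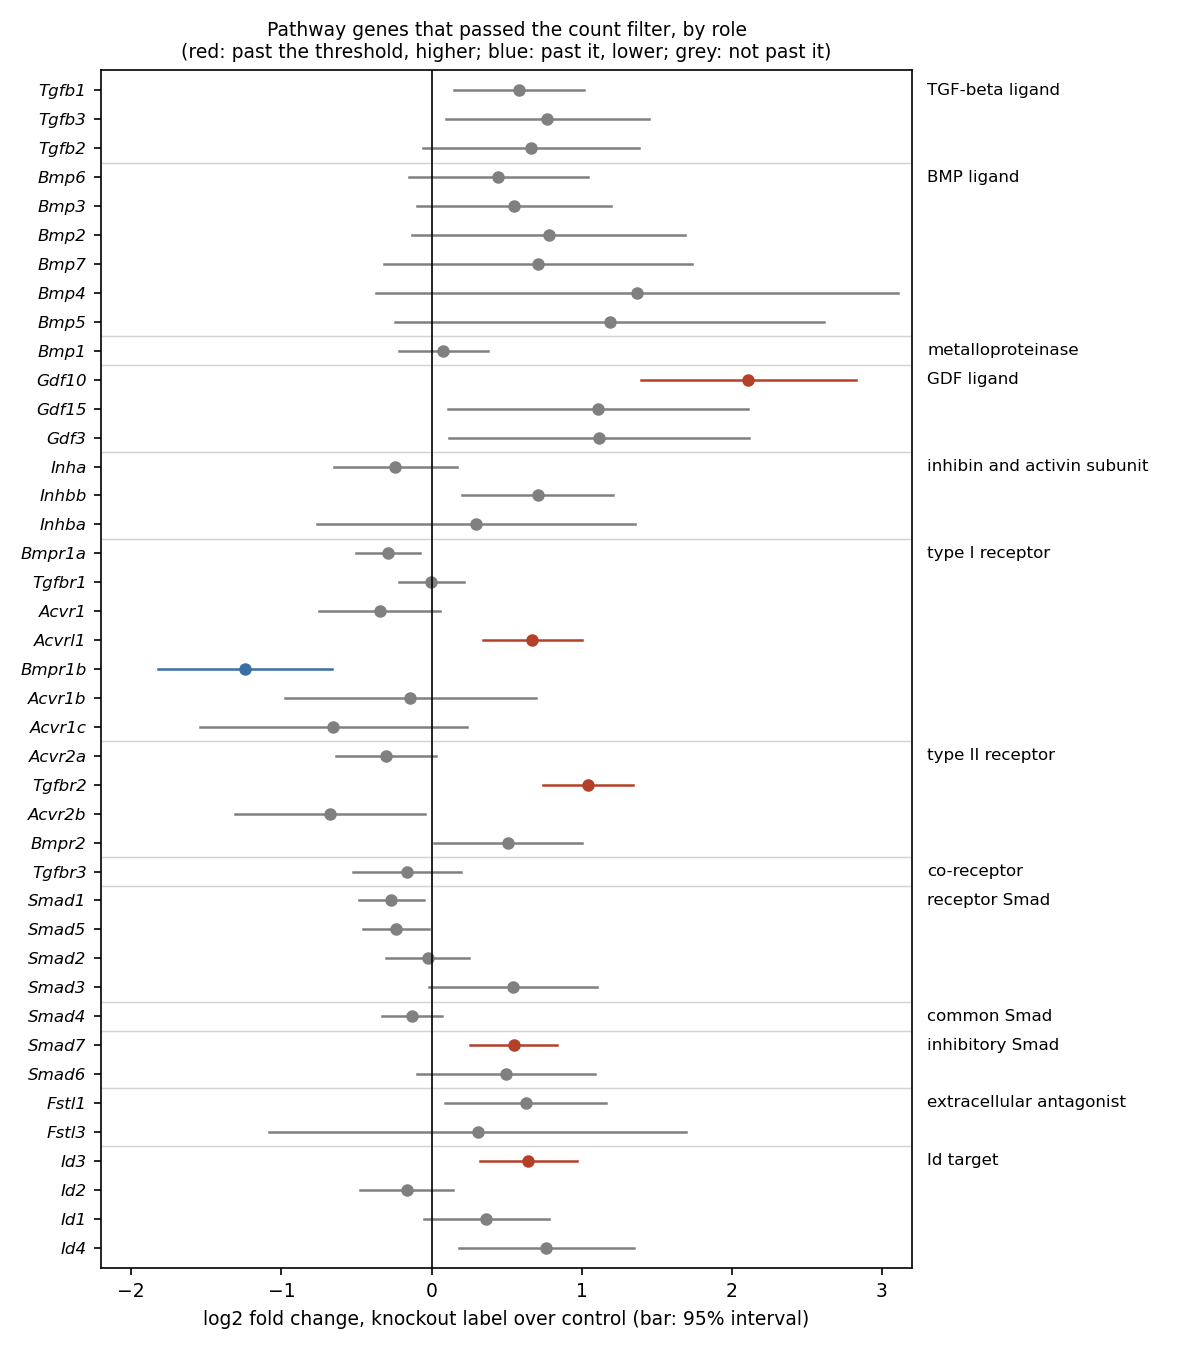
Log2 fold change of the 41 tested members (points) with 95% intervals (bars), ordered by role and, within a role, by level per length; positive values are higher in the knockout-labelled libraries. Ligands lie to the right of 0 except Inha, while 6 of 7 type I receptors lie at or left of it and only Acvrl1 to the right. Of all genes tested, 50.9% had a positive log2 fold change. Gdf10 is the only ligand past the threshold, and Bmp4 and Bmp5 passed the count filter in 3 knockout-labelled libraries and 1 control.

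The receptors divided in direction. Of 7 type I receptors, Acvrl1 rose, Bmpr1b fell and 5 were not called; of 4 type II receptors, Tgfbr2 rose and 3 were not called. Bmpr1a, the main BMP type I receptor of β cells and the most abundant receptor here per length, had 54.9, 50.4 and 57.3 CPM in the knockout-labelled libraries, against 62.4, 69.7 and 66.6 CPM in the controls. The groups did not overlap, but the log2 fold change of -0.29 ± 0.09 did not pass (adjusted p = 0.0895). Tgfbr1, the kinase partner of Tgfbr2, was at 47.5, 50.3 and 43.8 CPM in the knockout-labelled libraries and 45.02, 46.2 and 50.5 CPM in the controls. The log2 fold change of Tgfbr1 was 0.00 with a 95% interval of -0.22 to 0.22, beside the rise of its partner. Acvr1, the BMP receptor ALK2, had 9.85, 12.4 and 11.5 CPM against 11.0, 14.0 and 17.7 CPM in the controls (-0.34 ± 0.18, adjusted p = 0.255). Acvr1c, the activin and Nodal receptor ALK7, had 0.880, 2.77 and 1.83 CPM against 2.82, 3.37 and 2.41 CPM in the controls (-0.65 ± 0.40, adjusted p = 0.326).

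The type II receptor Acvr2a, which binds activins and several BMPs, had 25.3, 27.3 and 19.8 CPM in the knockout-labelled libraries and 25.2, 34.3 and 29.7 CPM in the controls (log2 fold change -0.30 ± 0.15, adjusted p = 0.232). Its exons overlap those of the abundant Orc4, so its level is uncertain. Acvr2b, its close relative, had 3.52, 2.58 and 3.50 CPM against 3.29, 6.50 and 5.58 CPM in the controls, with control 1 inside the knockout-labelled range (-0.68 ± 0.28, adjusted p = 0.163). Bmpr2, the BMP-specific type II receptor, had 5.98, 5.87 and 4.26 CPM against 3.98, 4.17 and 3.202 CPM in the controls. Its groups did not overlap, and its log2 fold change of 0.51 ± 0.22 had an adjusted p of 0.178. Tgfbr3, the co-receptor betaglycan, overlapped at 23.2, 25.0 and 17.8 CPM against 19.8, 25.9 and 28.2 CPM in the controls.

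**Figure D5:**
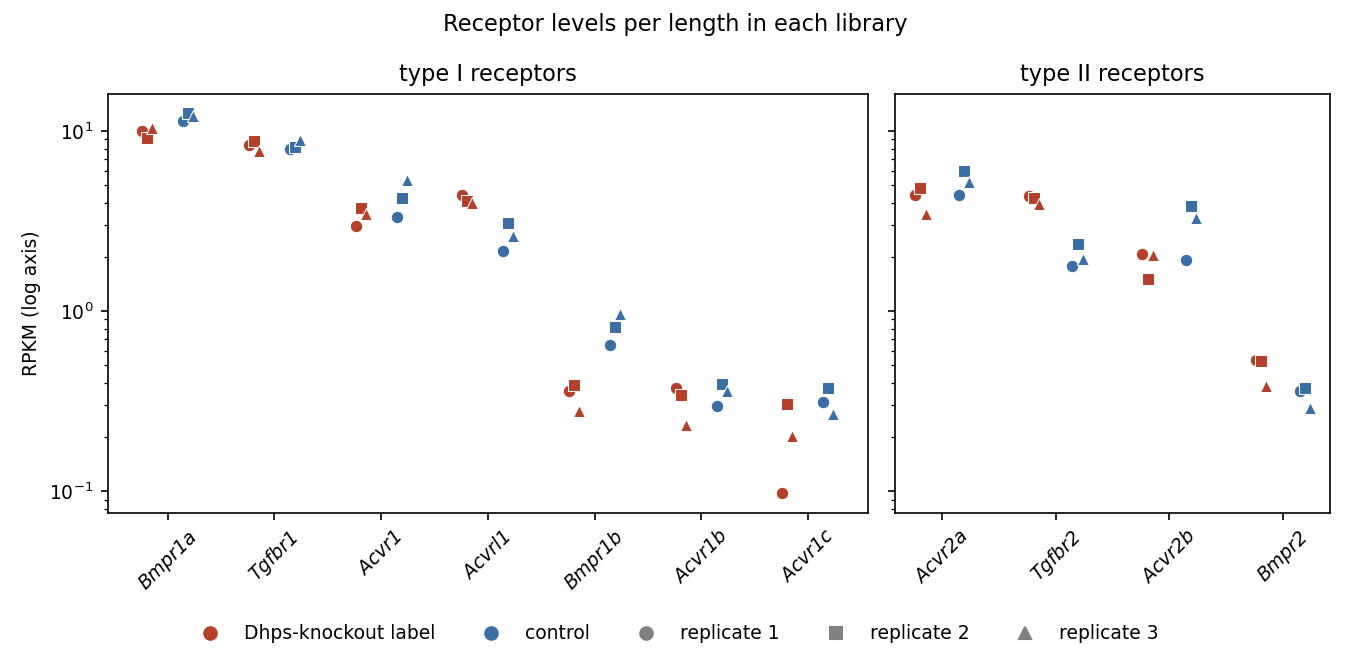
RPKM of each type I and type II receptor in every library on a log axis, knockout-labelled libraries left of controls for each gene. Acvrl1 stands above Acvr1, and Tgfbr2 above Acvr2b, in all 3 knockout-labelled libraries, and below them in all 3 controls.

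Per length, the order of the receptors differed between the labels at these genes, a contrast picked after the values were seen and given with no test. Acvrl1 had 4.44, 4.12 and 3.98 RPKM in the knockout-labelled libraries, where Acvr1 had 2.99, 3.76 and 3.48 RPKM. In the controls Acvrl1 had 2.17, 3.09 and 2.61 RPKM and Acvr1 had 3.32, 4.26 and 5.37 RPKM, so Acvrl1 was above Acvr1 in all 3 knockout-labelled libraries and below it in all 3 controls. Tgfbr2 had 4.36, 4.26 and 3.94 RPKM in the knockout-labelled libraries, where Acvr2b had 2.07, 1.52 and 2.06 RPKM. In the controls Tgfbr2 had 1.78, 2.37 and 1.94 RPKM and Acvr2b had 1.93, 3.82 and 3.28 RPKM. Bmpr1a and Tgfbr1 were the most abundant type I receptors per length in all 6 libraries, Bmpr1a at 9.19 to 10.4 RPKM in the knockout-labelled libraries and 11.4 to 12.7 RPKM in the controls.

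Among the Smads, Smad7 alone was called, and the more abundant members had small differences. Smad4, the shared partner, was the most abundant per length at 22.3 RPKM in the knockout-labelled libraries and 24.4 RPKM in the controls. Its CPM was 74.5, 72.3 and 77.0 against 77.5, 80.2 and 87.3 in the controls, a log2 fold change of -0.13 ± 0.09 (adjusted p = 0.392). Smad1, a transducer of BMP signals, had 50.5, 56.4 and 50.7 CPM against 59.1, 63.1 and 67.6 CPM in the controls (-0.27 ± 0.10, adjusted p = 0.114). Smad5, with the same role, had 21.7, 23.2 and 24.5 CPM against 27.6, 28.0 and 26.0 CPM in the controls (-0.23 ± 0.10, adjusted p = 0.167). Smad1, Smad4 and Smad5 each had every knockout-labelled value below every control, and none passed the test. Such a separation in the lower direction was found for 15.3% of all genes tested.

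The TGF-beta and activin transducers differed from each other in level. Smad2 had 29.8, 30.1 and 22.6 CPM in the knockout-labelled libraries, against 28.1, 28.8 and 27.1 CPM in the controls, and its 95% interval of the log2 fold change was -0.30 to 0.25. Smad3 was rarer, at 0.912 RPKM in the knockout-labelled libraries and 0.627 RPKM in the controls. Smad2 had 3.01 RPKM in the knockout-labelled libraries and 3.06 RPKM in the controls. The CPM of Smad3 was 4.57, 5.54 and 3.81 against 3.33, 3.75 and 2.49 in the controls, apart but not called (0.54 ± 0.25, adjusted p = 0.199). Smad6, the inhibitory Smad of BMP signals, which lies 195081 bases from Smad3, had 5.76, 3.76 and 4.57 CPM against 4.16, 3.37 and 2.49 CPM in the controls and overlapped (0.49 ± 0.27, adjusted p = 0.264).

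Of the 4 Id genes, Id3 alone passed, and it was the most abundant member of all per length. Id3 averaged 33.8 RPKM in the knockout-labelled libraries and 21.6 RPKM in the controls. Id2 averaged 20.4 RPKM in the knockout-labelled libraries and 22.9 RPKM in the controls. Id1, the gene most used as a reporter of BMP activity, had 10.7, 12.3 and 12.9 CPM in the knockout-labelled libraries, against 6.94, 11.5 and 9.41 CPM in the controls. Control 2 lay inside the knockout-labelled range, and the log2 fold change was 0.36 ± 0.19 (adjusted p = 0.242). Id4 was apart at 4.13, 4.04 and 3.15 CPM against 1.94, 2.67 and 2.06 CPM in the controls (0.76 ± 0.26, adjusted p = 0.1). Id2, which many cell types express, had 29.1, 26.2 and 22.6 CPM against 24.4, 33.6 and 29.4 CPM in the controls (-0.17 ± 0.14, adjusted p = 0.484).

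Among the antagonists that the symbol rule takes, Fst, Nog, Grem1 and Fstl3 were scarce. Other extracellular regulators, in the wider list described below, were not. Twsg1 averaged 363 CPM in the knockout-labelled libraries and 412 CPM in the controls, and Nbl1 averaged 31.1 CPM and 23.2 CPM, neither of them called. Fstl1, a follistatin-like glycoprotein of stromal cells, had 17.6, 12.4 and 11.1 CPM in the knockout-labelled libraries, against 7.17, 7.25 and 12.1 CPM in the controls. Control 3 overlapped the other label (log2 fold change 0.63 ± 0.24, adjusted p = 0.132). That library also had the highest stromal marker sum of the controls, and a link between these was not tested. Fstl3, which binds activins, overlapped at 1.32, 0.470 and 0.406 CPM against 0.324, 0.416 and 1.03 CPM in the controls. Follistatin (Fst), the main activin trap, had 8, 5 and 13 counts in the knockout-labelled libraries and 7, 10 and 3 in the controls, too few to be tested. The BMP traps noggin (Nog) and gremlin (Grem1) had 9 and 2 counts in all over the knockout-labelled libraries and 0 over the controls.

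In all, 17 members were too low to test. Bmp10, Gdf1 and Inhbe had 0 counts in every library, and the other 14 had between 1 and 46 counts over the 6 libraries. Smad9, the third BMP transducer, had 4, 0 and 0 counts in the knockout-labelled libraries and 5, 7 and 5 in the controls. Gdf9 had 15 counts over the knockout-labelled libraries and 17 over the controls. Gdf11 had 11 counts over the knockout-labelled libraries and 8 over the controls, and Bmp15 had 2 over the knockout-labelled libraries and 10 over the controls. Bmp8a, Bmp8b, Gdf2, Gdf5, Gdf6, Gdf7 and Inhbc had 5 counts or fewer in all.

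A wider list of 85 regulators, processing enzymes and target genes of the pathway that the symbol rule does not take was read from the same fit. Among the 66 that could be tested, 9 rose, 2 fell and 55 did neither, and the median log2 fold change was 0.22. These shares were 13.6% and 3.03%, against 4.14% and 2.63% of all genes tested. Thrombospondin 1 (Thbs1), which can release TGF-beta from its latent complex, had 146, 126 and 96.9 CPM in the knockout-labelled libraries, against 67.2, 57.7 and 46.8 CPM in the controls (1.10 ± 0.17, adjusted p = 0.0129). Lrrc32 (GARP), a cell-surface anchor of latent TGF-beta, had 24.0, 29.7 and 25.5 CPM against 17.6, 14.2 and 12.1 CPM in the controls. Ltbp1, which ties latent TGF-beta to the matrix, had 10.3, 7.75 and 7.56 CPM against 3.52, 4.998 and 4.03 CPM in the controls. Itgb6, a subunit of the epithelial integrin that activates TGF-beta and named after its values were seen, also rose (1.16 ± 0.29, adjusted p = 0.0439). Others of the list with related roles were not called, namely Ltbp2 (-0.07), Ltbp3 (0.21), Ltbp4 (0.16), Itgav (-0.15) and Itgb8 (-0.25 on the log2 scale). Stromal, endothelial and duct cells also express such genes, and their summed markers were higher in the same libraries; the part of those cells in the result was not tested.

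Eng, the endothelial co-receptor that works with Acvrl1, rose by 0.54 ± 0.11 on the log2 scale, at 51.7, 45.2 and 43.6 CPM in the knockout-labelled libraries against 30.9, 31.1 and 35.0 CPM in the controls, but its exons overlap those of Fpgs. Cdkn1a, the cell cycle inhibitor p21 and a target of TGF-beta as well as of p53, had 186, 103 and 121 CPM against 48.4, 41.2 and 34.4 CPM in the controls (1.72 ± 0.21, adjusted p = 0.0072). The nuclear Smad corepressor Tgif1 rose by 1.11 ± 0.23, the Smad-binding repressor Zeb2 by 1.32 ± 0.30 and the secreted protease Htra1, which binds TGF-beta family ligands, by 1.07 ± 0.21. Pcsk6, a convertase that cleaves TGF-beta family precursors, fell, with 15.4, 15.0 and 14.5 CPM in the knockout-labelled libraries against 21.2, 26.8 and 24.1 CPM in the controls (-0.69 ± 0.12, adjusted p = 0.0169). The endosomal Smad anchor Zfyve16 also fell, by 0.49 on the log2 scale (adjusted p = 0.0436). The contractile targets Acta2 (0.97 ± 0.44) and Tagln (0.77 ± 0.37, with exons overlapping those of Pcsk7), named after their values were seen, overlapped between the labels and did not pass, with adjusted p of 0.193 and 0.216. Single libraries mattered here too: the list had 9 genes called higher with all libraries, 5 with knockout-labelled replicate 2 left out, 3 with control 3 left out, and 1 with either knockout-labelled replicate 1 or control 2 left out.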

How the data were processed

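Poly-dT-primed SMART-Seq v4 cDNA from 10 ng of islet RNA was sheared and sequenced as Ion Plus Fragment libraries, per the labels' protocols. Tools listed in the submitters' processing notes are STAR 2.4.2a, Subread 1.5.0 with featureCounts, and edgeR, on build mm10; the annotation and the strand and multi-mapping settings are not stated in any source used here. The authors deposited raw counts per gene with exon coordinates and, in another unit (bp), gene length, per the file headers. Low-input amplification adds noise to rare transcripts, and counts without strand cannot separate overlapping genes.

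Counts were tested in edgeR 4.0.16 (R 4.3.3, TMM factors, default count filter, quasi-likelihood test, Benjamini-Hochberg adjustment over all genes tested), with group as the only term. CPM used TMM-scaled library sizes, and RPKM also the deposited length. SE came from the fold change and its F value. Exon overlaps were found with GenomicRanges 1.54.1. DESeq2 1.42.0 and limma 3.58.1 (voom) served as alternatives, and the procedure was tested on simulated data. Libraries of a label differed by more than counting noise (chi-square per degree of freedom 10.8 or more).

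The members, gene lists and tests were chosen with earlier results of these data known. Named genes were all members past the threshold, up to 3 with the smallest p and the 2 most abundant per length in each role, and up to 10 called genes of the wider list; other members are given for completeness. Groups had 3 libraries each.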

Additional observations from a re-analysis of the deposited data

How the results depend on the processing

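Of the 41 tested members, 35 kept the direction of their log2 fold change in each of the 13 alternatives that gave them a value (Bmp4, Bmp5, Gdf15 and Fstl3 did not pass the minimum of 1 CPM in 3 libraries); Bmp1, Inhba, Tgfbr1, Acvr1b, Smad2 and Fstl3, none of them called, changed sign in at least 1. Members called higher numbered 5 with RLE or upper-quartile factors, without a filter, with a minimum of 1 CPM in 3 libraries and in limma-voom, and 6 in DESeq2, and 1 was called lower in each. Leaving out a library gave 1 to 4 members called higher, and the 4, without control 1, included Tgfb3 and Inhbb. The fits with a library left out called 0 to 1 member lower, with a median log2 fold change of 0.37 to 0.52. Over all genes, those fits called 56 to 534 genes higher and 8 to 434 lower, DESeq2 called 990 and 712, and no filter on low counts called 620 lower. In the wider list, 1 to 9 genes were called higher and 0 to 2 lower with a library left out; 1 was lower with upper-quartile factors, and 4 were with no filter. Dhps stayed uncalled, at -0.13 to -0.04 with a library left out.

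The labels share replicate numbers but nothing ties them to a litter or batch, and deviations of same-numbered libraries correlated at -0.04, -0.01 and 0.05 across genes, so the numbers were not taken as pairs. With the replicate block, 4 members were called higher and 1 lower, Smad7 missing the threshold (adjusted p = 0.0573), while the wider list had 10 higher and 1 lower. At this depth, members with a few counts per library could not be compared.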
